A study of Mus musculus with 4 samples.

Results

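Chemokine receptors and the chemerin receptor are G protein-coupled receptors that steer leukocytes along gradients of their ligands. Most couple to Gi proteins, through which they lower cyclic AMP, release calcium and activate integrins, and each cell type is drawn to the sites whose ligands its own receptors read. Plasmacytoid dendritic cells (pDCs), the dendritic cell type known for its output of type I interferon, are known for Ccr9 and Cxcr3 in the mouse, whereas Ccr2 and Cx3cr1 are best known from monocytes. The 9 receptor genes described here were fixed by name (Ccr1, Ccr2, Ccr6, Ccr7, Ccr9, Cxcr3, Cxcr4, Cx3cr1 and Cmklr1). All 9 were found, each read by 1 probe set with 1 gene symbol, among 19938 genes measured.

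The cells were labelled as pDCs from the spleens of Flt3 knockout (Flt3 KO) and wild-type (WT) mice at steady state, with 2 samples of each genotype called biological replicates in the labels. The product of Flt3 is a receptor tyrosine kinase whose ligand drives dendritic cell growth. The labels used here give neither the allele, the strain, the age and sex of the mice nor the sorting gate. They do not say whether a sample was 1 animal or a pool, so the spread between these samples may not be that between animals. The p-values rest on that spread and on limma's pooling of variance over genes. RNA of each sample was labelled with biotin and read on a whole-transcript GeneChip array. All levels below are log2 of the deposited intensity, all differences are Flt3 KO minus WT on that scale with limma's moderated standard error (SE), and the threshold was an adjusted p under 0.05 over all genes.

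The Flt3 probe set had 8.46 and 8.61 in Flt3 KO samples against 10.71 and 10.77 in WT samples (difference −2.21, SE 0.066, limma adjusted p = 7.4e-05), and was lower in both samples labelled Flt3 KO. The pDC markers were bright on every array: Siglech, a pDC lectin gene, averaged 12.52 in Flt3 KO samples and 12.65 in WT samples, and all 13 measured pDC markers lay above 5.89, the median level of all genes, on all 4 arrays. Flt3 KO replicate 2 stood apart in monocyte and macrophage markers. Relative to the WT mean, the median of 17 measured markers was 0.54 in Flt3 KO replicate 2 and 0.14 in Flt3 KO replicate 1. In bulk samples fewer cells of a type and less RNA per cell cannot be told apart.

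Of the 9 receptor genes, 3 rose in Flt3 KO pDCs (Cx3cr1, Ccr2 and Cmklr1), 2 fell (Ccr9 and Cxcr3) and 4 did not pass the threshold (Ccr1, Ccr7, Ccr6 and Cxcr4). Of all 19938 genes, 2.39% passed, 1.08% higher and 1.31% lower in Flt3 KO. The arrays of the genotypes did not overlap for 8 of the 9 genes, 5 higher and 3 lower, where 47.2% of all genes had arrays that did not overlap. An unadjusted p under 0.05 was reached by 7 of the 9 and by 17.1% of all genes, the share against which such counts for the lists below stand. The 9 genes were chosen with results of these data known, so these counts describe them and give no independent support. Centring each array on its median moved the balance over all genes to 227 higher and 442 lower, against 215 higher and 261 lower without it, and kept the calls of these 5 receptor genes.

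**Figure D1:**
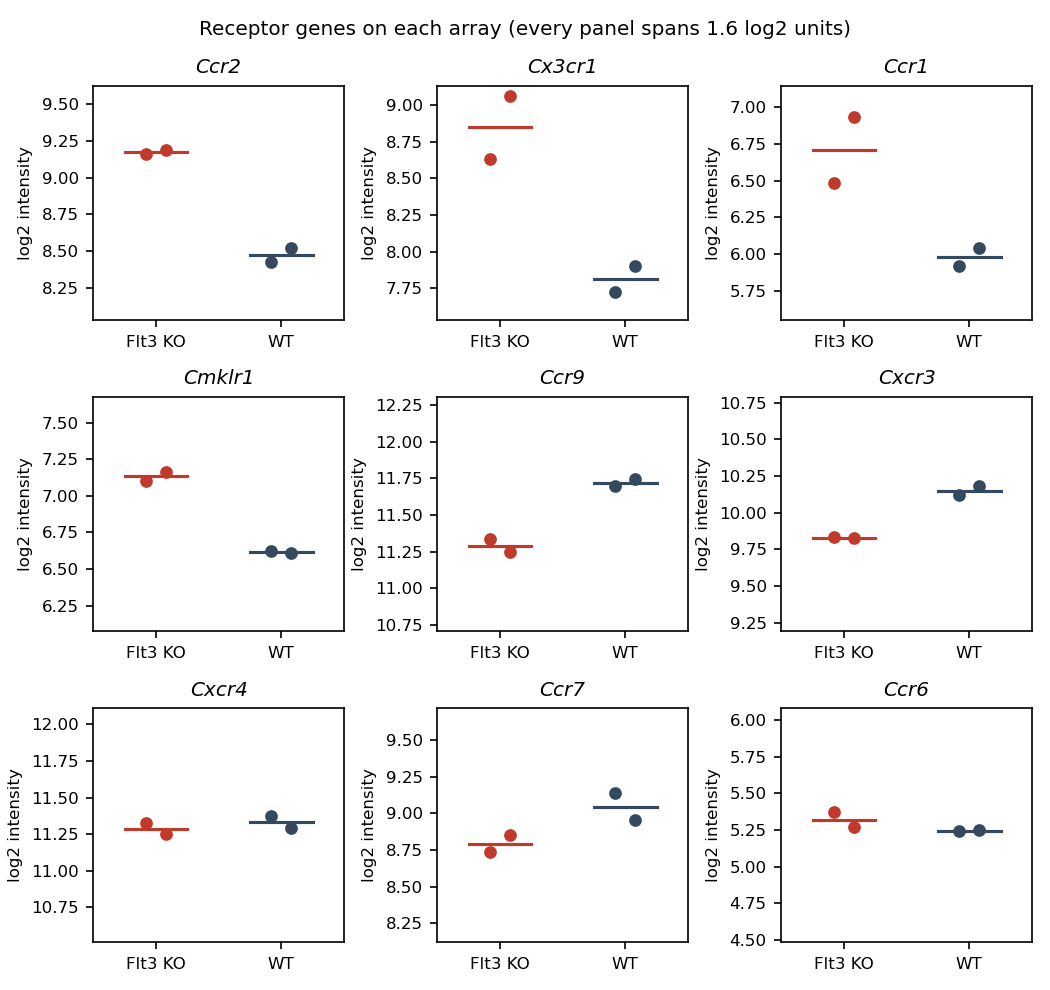
Log2 intensity of the 9 receptor genes on each array, with Flt3 KO to the left of WT; points are single arrays and lines are means of 2 arrays, and every panel spans the same width in log2 units around its own centre. Only Cxcr4 has arrays that overlap between the genotypes, and Cx3cr1 and Ccr1 have the widest gap between the Flt3 KO arrays.

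The sequences before the annotated starts of 4 receptor genes past the threshold are shown because these genes, 2 that fell and 2 that rose, all hold an E-box of the kind that E proteins such as the pDC factor TCF4 can bind. They are the 250 bases upstream of each start in the RefSeq promoter table (build GRCm38.p6), given 5′ to 3′ on the strand of the gene: chr9:123766961-123767210 (plus strand) for Ccr9, chrX:101734148-101734397 (minus strand) for Cxcr3, chr9:120068297-120068546 (minus strand) for Cx3cr1 and chr5:113643604-113643853 (minus strand) for Cmklr1. Capitals mark matches on either strand to the motifs searched. The E-boxes were CAGCTG in its symmetric form and, in its other form, the letters CAGGTG. The motif of PU.1 was searched as GAGGAA, that of RUNX factors as the letters TGTGGT, that of STAT factors by the spaced letters TTCNNNGAA, and that of IRF factors by the spaced letters GAAANNGAA.
Ccr9: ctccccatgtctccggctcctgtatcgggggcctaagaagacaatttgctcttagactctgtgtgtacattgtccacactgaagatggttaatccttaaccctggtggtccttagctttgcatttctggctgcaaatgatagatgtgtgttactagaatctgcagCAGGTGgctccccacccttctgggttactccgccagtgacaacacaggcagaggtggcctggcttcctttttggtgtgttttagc
Cxcr3: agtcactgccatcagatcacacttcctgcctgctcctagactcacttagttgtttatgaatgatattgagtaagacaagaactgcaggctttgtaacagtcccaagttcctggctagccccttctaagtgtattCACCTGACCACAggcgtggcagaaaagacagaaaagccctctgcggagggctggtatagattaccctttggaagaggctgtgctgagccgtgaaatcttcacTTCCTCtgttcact
Cx3cr1: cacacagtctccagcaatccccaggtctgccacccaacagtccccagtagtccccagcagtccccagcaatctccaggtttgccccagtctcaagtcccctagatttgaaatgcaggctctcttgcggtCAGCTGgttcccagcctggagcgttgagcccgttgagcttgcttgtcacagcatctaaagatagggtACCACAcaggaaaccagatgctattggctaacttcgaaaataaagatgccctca
Cmklr1: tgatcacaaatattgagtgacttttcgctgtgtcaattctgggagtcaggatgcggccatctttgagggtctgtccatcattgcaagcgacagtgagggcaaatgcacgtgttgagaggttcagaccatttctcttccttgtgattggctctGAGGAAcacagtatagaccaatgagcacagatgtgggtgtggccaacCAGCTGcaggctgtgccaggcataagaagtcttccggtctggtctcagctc

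Ccr9 held 1 match, the E-box CAGGTG with its first base at position −85, counted from the annotated start. In Cxcr3 the same motif, on the opposite strand at −116, was followed directly by a RUNX match at −110, and a PU.1 match lay at −14. Cx3cr1 held the E-box CAGCTG at −121 and a RUNX match at −54, and Cmklr1 held CAGCTG at −51 and a PU.1 match at −98. Ccr2, which also rose, held neither E-box in its 250 bases; its single match was to the IRF motif, at −86.

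Such short motifs are common. At least 1 of the E-box forms occurred in 27.7% of 32851 upstream windows of the same length, the PU.1 motif in 23.3%, the RUNX motif in 14.0%, the IRF motif in 7.13% and the STAT motif in 7.02%. The 4 windows printed were picked because they hold an E-box. Of the receptor genes that did not pass, Ccr1 held a PU.1 and a RUNX match, and Cxcr4 held none. Ccr6 held a PU.1 and 2 STAT matches in the first of its 2 windows and none in the other. For Ccr7 no upstream window was available, so it was not searched. A match describes the letters in the window and does not show that a factor binds there.

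Ccr9 is the receptor for CCL25, a chemokine of the thymus and small intestine, and marks most mature pDCs in mice. It had 11.34 and 11.25 in Flt3 KO pDCs, against 11.70 and 11.74 in WT pDCs. Both Flt3 KO arrays lay below both WT arrays, and the gap between the genotypes was several times that within either. Ccr9 fell by 0.43 (SE 0.048, 1.35-fold, limma adjusted p = 0.0085).

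Cxcr3 binds the interferon-induced chemokines CXCL9, CXCL10 and CXCL11, which draw pDCs and effector T cells into inflamed tissue. It had 9.83 and 9.83 in Flt3 KO pDCs, against 10.12 and 10.18 in WT pDCs. The Flt3 KO arrays were nearly equal and below both WT arrays. Cxcr3 fell by 0.32 (SE 0.051, 1.25-fold, limma adjusted p = 0.027), the smallest difference among the 5 receptor genes past the threshold. Markers of T cells, which also use Cxcr3, were 0 higher and 2 lower among 11 measured, with a median difference of 0.017. An unadjusted limma p under 0.05 was reached by 6 of the 11. The 2 lower genes were Cd4 (−0.87), which is also on the list for type 2 conventional dendritic cells, and Cd8b1 (−0.26). Cd4 and Cd8b1 averaged 10.54 and 10.49 in WT samples. The T cell markers Cd3d, Cd3e and Cd3g averaged 6.20, 6.68 and 6.61 there. Which cells gave the Cd4 and Cd8b1 signal was not tested. Above the WT mean lay 7 of the 11 in Flt3 KO replicate 1 and 6 in replicate 2.

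Cxcr4, the CXCL12 receptor that retains blood cells in the bone marrow, had 11.32 and 11.25 in Flt3 KO pDCs, against 11.38 and 11.29 in WT pDCs. Its arrays overlapped between the genotypes. The difference was −0.046, with a 95% interval from −0.16 to 0.071 (limma adjusted p = 0.70).

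Ccr7, the receptor for CCL19 and CCL21 that guides mature dendritic cells and T cells into lymph nodes, had 8.73 and 8.85 in Flt3 KO pDCs, against 9.14 and 8.95 in WT pDCs. The Flt3 KO arrays were lower, but the gap between the nearest arrays of the genotypes was smaller than the gap within either genotype. Its difference of −0.25 (95% interval −0.44 to −0.061, limma adjusted p = 0.18) did not pass. Markers of mature migratory dendritic cells, which carry Ccr7 at high levels, were 0 higher and 0 lower among 9 measured in limma, with 3 at an unadjusted p under 0.05 and a median difference of 0.036.

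Ccr2, the receptor for CCL2 that brings monocytes out of the bone marrow, had 9.16 and 9.19 in Flt3 KO pDCs, against 8.43 and 8.52 in WT pDCs. The arrays of each genotype lay close together and the genotypes were far apart. Ccr2 rose by 0.70 (SE 0.063, 1.63-fold), with the lowest limma adjusted p of the 9 genes, 0.0046.

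Cx3cr1, the receptor for the membrane-bound chemokine fractalkine and a gene of monocytes, macrophages and some dendritic cells, had 8.63 and 9.06 in Flt3 KO pDCs, against 7.73 and 7.90 in WT pDCs. Both Flt3 KO arrays were above both WT arrays, with replicate 2 the higher. Cx3cr1 rose by 1.03 (SE 0.14, 2.05-fold, limma adjusted p = 0.015), a difference that ranked 27 from the top among all 19938 genes. Without Flt3 KO replicate 2 the difference was 0.82 with an adjusted p of 0.11, and without Flt3 KO replicate 1 it was 1.25 with an adjusted p of 0.041.

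Cmklr1 encodes the receptor for chemerin, an attractant cleaved from a plasma precursor and known to draw pDCs in humans. It had 7.10 and 7.16 in Flt3 KO pDCs, against 6.62 and 6.61 in WT pDCs. As with Ccr2, the arrays within a genotype lay close together and the genotypes were clearly apart. Cmklr1 rose by 0.52 (SE 0.076, 1.43-fold, limma adjusted p = 0.020).

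Ccr1, a receptor for CCL3 and CCL5 on monocytes and neutrophils, had 6.49 and 6.94 in Flt3 KO pDCs, against 5.92 and 6.04 in WT pDCs. The Flt3 KO arrays were both higher but 0.45 apart, the widest gap within a genotype among the 9 genes. Its difference of 0.73 (SE 0.15), slightly above that of Ccr2, missed the threshold with a limma adjusted p of 0.056. How far probe sets of related receptor genes such as Ccr1 and Ccr2 share signal was not tested. It passed under either scaling alternative (adjusted p = 0.037 after centring and 0.040 after quantile normalization), while without Flt3 KO replicate 2 the difference was 0.50.

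Ccr6, the CCL20 receptor of B cells and some dendritic cells, had 5.38 and 5.27 in Flt3 KO pDCs, against 5.24 and 5.25 in WT pDCs. All 4 values were under 5.89, the median level of all genes, so Ccr6 gave a dim signal on every array. The difference was 0.077 (95% interval −0.14 to 0.30, limma adjusted p = 0.74). Of 11 measured B cell markers 0 were higher and 0 lower in limma, with 4 at an unadjusted p under 0.05 and a median difference of −0.090.

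**Figure D2:**
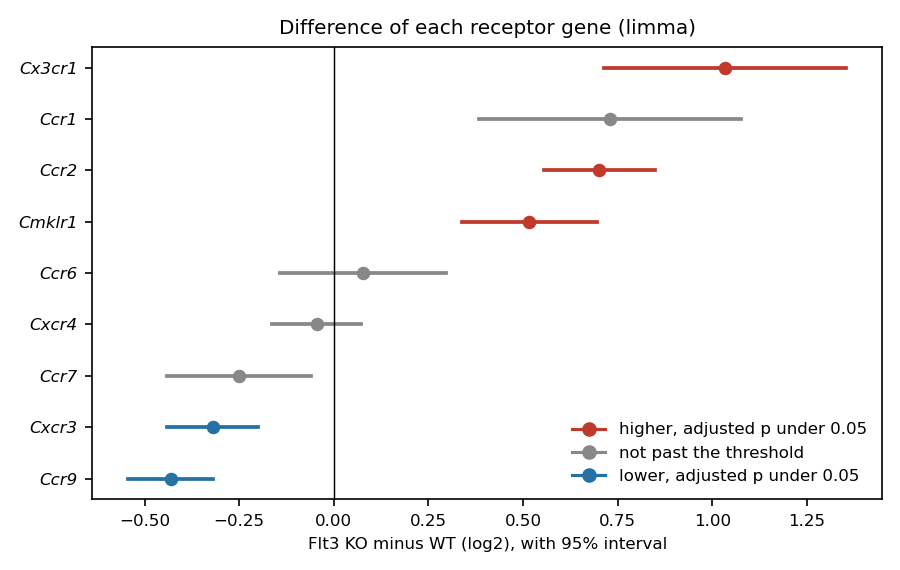
Flt3 KO minus WT difference of each receptor gene on the log2 scale with its 95% limma interval, coloured by direction for genes past the threshold and grey otherwise. The intervals of the 4 highest genes lie wholly above 0 and those of Ccr9, Cxcr3 and Ccr7 wholly below it.

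In order of difference the genes ran from Cx3cr1 (1.03) through Ccr1 (0.73), Ccr2 (0.70), Cmklr1 (0.52), Ccr6 (0.077), Cxcr4 (−0.046), Ccr7 (−0.25) and Cxcr3 (−0.32) to Ccr9 (−0.43). The 95% intervals of Cx3cr1, Ccr1 and Ccr2 overlapped one another, as did those of Ccr7, Cxcr3 and Ccr9; differences between receptor genes were not tested. The median of the 9 differences was 0.077, beside −0.0010 over all genes. An exact permutation test of 2 arrays against 2 cannot go below 0.33, so the calls depend on limma's pooling of variance over genes. With any 1 array left out, the fit had 1 residual degree of freedom, all 9 differences kept their sign, and of the 5 calls 1 (Cx3cr1) stayed without Flt3 KO replicate 1 and 0 stayed without Flt3 KO replicate 2, WT replicate 1 or WT replicate 2. Adjusted p-values of the 5 genes in these fits ran from 0.041 to 0.33.

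The receptor genes that were higher in Flt3 KO differed in how the Flt3 KO arrays compared. Flt3 KO replicate 2 exceeded replicate 1 by 0.43 for Cx3cr1 and by 0.45 for Ccr1, but by 0.029 for Ccr2 and 0.059 for Cmklr1. Over all genes the median absolute gap between the Flt3 KO arrays was 0.092. Without Flt3 KO replicate 2 the differences of Ccr2 and Cmklr1 were 0.69 and 0.49, close to 0.70 and 0.52 with it.

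Markers of monocytes and macrophages, cells that use Ccr2, Cx3cr1 and Ccr1, were given the same measurements. Of 17 measured, 3 rose and 0 fell, and 14 did not pass, with a median difference of 0.41. An unadjusted limma p under 0.05 was reached by 9 of the 17. Fn1, which encodes fibronectin, rose by 0.88, the lipopolysaccharide co-receptor gene Cd14 by 1.08 and the lysozyme gene Lyz2 by 0.51. The growth factor receptor gene Csf1r had a difference of 0.52 (limma adjusted p = 0.16) and the complement gene C1qa 0.50 (adjusted p = 0.22). The summed intensity of the 17 markers was 4983 and 6517 in Flt3 KO samples and 4653 and 4240 in WT samples.

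No marker had a value of 0, since array intensities are positive throughout. Of the 17, 11 lay above the median level of all genes on all 4 arrays, and 4 (Fcgr1, Vcan, F13a1 and Ms4a7) lay below it on all 4. The Flt3 KO arrays were split in several markers in the same direction as in Cx3cr1 and Ccr1. Flt3 KO replicate 2 exceeded replicate 1 by 0.55 for Cd14, 0.47 for Csf1r and 0.62 for C1qa. It was lower for Fn1 (−0.12) and nearly equal for Lyz2 (−0.018). The WT arrays did not share this likeness. Relative to the WT mean, the median of the 17 markers was 0.073 in WT replicate 1 and −0.073 in WT replicate 2. Cx3cr1 (7.73 and 7.90) and Ccr1 (5.92 and 6.04) were instead higher in WT replicate 2. Among the 17 markers, 14 lay above the WT mean in each Flt3 KO array. The part of monocytes or macrophages in the receptor differences was not tested.

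Markers of pDCs, the cells for which Ccr9 and Cxcr3 are known, mostly had lower means in Flt3 KO, with Cd209d alone higher. Among the 13 on the list that were measured, 5 fell and 1 rose, 7 missed the threshold, with a median difference of −0.24, −0.21 in Flt3 KO replicate 1 and −0.24 in replicate 2 relative to the WT mean. Cox6a2, which encodes a mitochondrial respiratory chain subunit, fell by 0.76, the RNA sensor gene Tlr7 by 0.49 and the transcription factor gene Spib by 0.47. The transcription factor gene Irf8 fell by 0.31 and Ly6d by 0.25, and the lectin gene Cd209d rose by 0.37. Siglech (−0.13), Bst2 (−0.074) and the pDC transcription factor gene Tcf4 (−0.043) did not pass. Without adjustment, 11 of the 13 had a limma p under 0.05. Levels above the WT mean were seen for 1 of the 13 in Flt3 KO replicate 1 and for 2 in replicate 2.

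**Figure D3:**
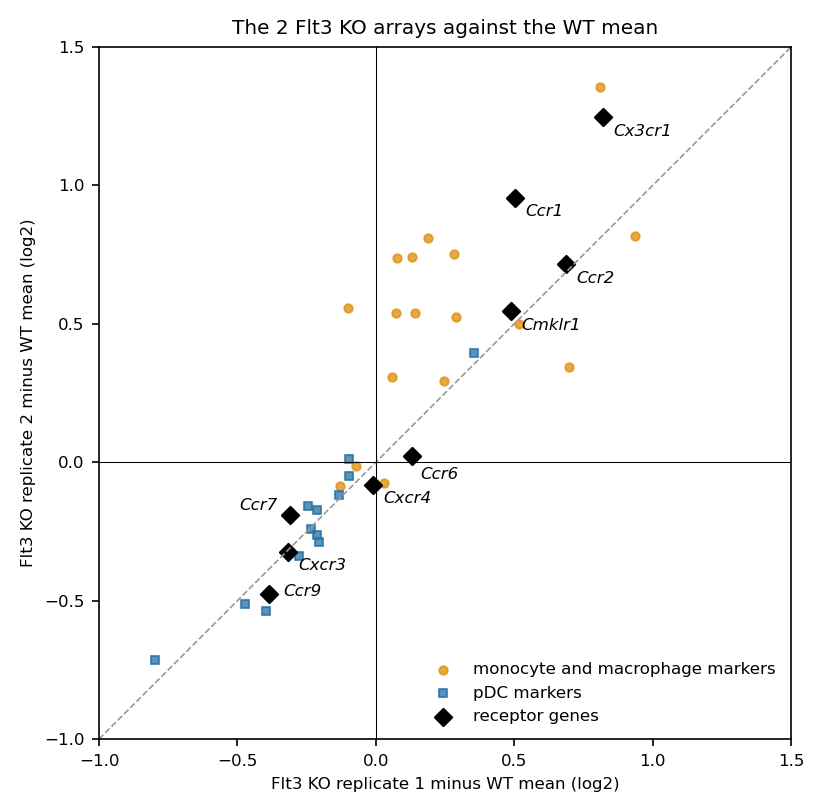
Log2 level in each Flt3 KO array minus the WT mean, replicate 1 across and replicate 2 up, for the receptor genes, monocyte and macrophage markers and pDC markers; the dashed line marks equal values. Ccr2, Cmklr1, Ccr9 and Cxcr3 lie near the line, while Cx3cr1, Ccr1 and many monocyte and macrophage markers lie above it.

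Of 16 other chemokine receptors measured, 0 passed in limma in either direction, 1 had an unadjusted p under 0.05, and the median difference was 0.0065. The neutrophil chemokine receptor gene Cxcr2 had the lowest p with a difference of 0.38 (adjusted p = 0.27), followed by the atypical receptor gene Ccrl2 with 0.22 (adjusted p = 0.29). Of the 16, 12 lay below the median level of all genes on all 4 arrays.

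Among 16 measured ligands of the 9 receptors, Ccl3, which encodes a ligand of CCR1, was the single gene past the threshold. It had 8.68 and 8.84 in Flt3 KO pDCs, against 9.66 and 9.36 in WT pDCs, and fell by 0.75 (SE 0.10, limma adjusted p = 0.018). The other 15 did not pass, 3 of the 16 had an unadjusted limma p under 0.05, and the list median was 0.14. The chemerin gene Rarres2 had 6.42 and 5.60 in Flt3 KO pDCs against 5.60 and 5.48 in WT pDCs (difference 0.47, limma adjusted p = 0.37). Flt3 KO replicate 1 alone stood above the other arrays; Rarres2 was named after its values were seen.

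Other chemoattractant receptors included Gpr183, the receptor for oxysterols that position dendritic and B cells in the spleen, which rose by 0.48 (SE 0.071, limma adjusted p = 0.021). It had 10.72 and 10.76 in Flt3 KO pDCs, against 10.16 and 10.36 in WT pDCs. The other 12 of 13 measured did not pass, 6 of the 13 had an unadjusted limma p under 0.05, and the list median was 0.064. Nearest to the threshold was the sphingosine 1-phosphate receptor gene S1pr3 (0.45, adjusted p = 0.056), named after its value was seen.

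Of 17 genes of G protein coupling and desensitisation, Rgs18, which encodes a GTPase-activating protein that shortens Gi signals, fell by 0.44 (SE 0.081, limma adjusted p = 0.043), and 16 did not pass (median 0.022). Gnai2, the main Gi subunit gene of leukocytes, had a difference of 0.022 (adjusted p = 0.89), a gene named after its value was seen. Of 24 migration effectors, the phospholipase gene Plcb3 rose by 0.42 (SE 0.069, limma adjusted p = 0.031) and 23 did not pass (median 0.0053). All 24 were above the median level of all genes on every array. An unadjusted limma p under 0.05 was reached by 4 of the 17 coupling genes and 4 of the 24 effectors.

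**Figure D4:**
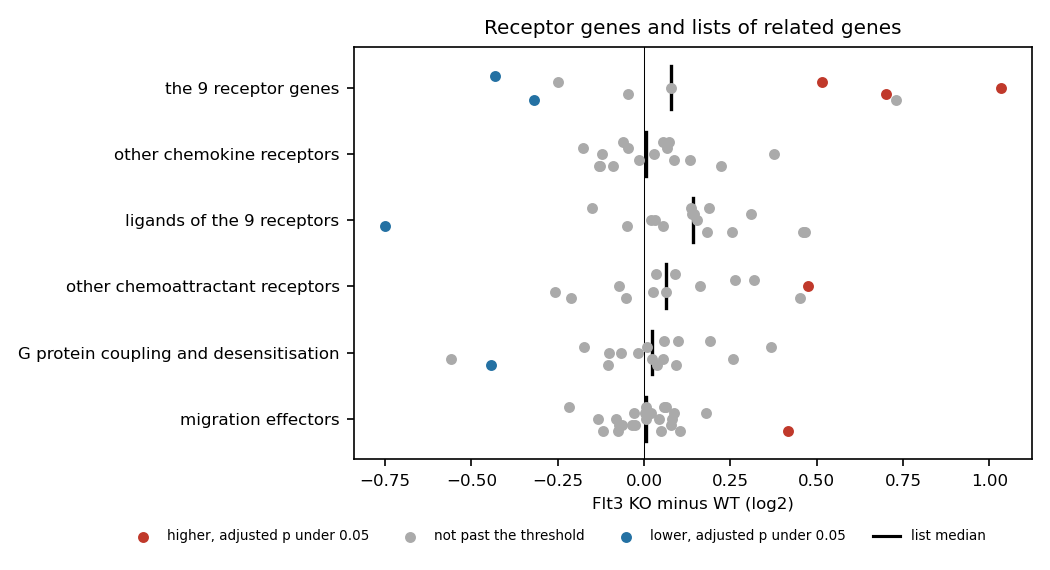
Flt3 KO minus WT differences of the 9 receptor genes and of 5 lists of related genes on the log2 scale; each point is a gene, coloured by direction where it passed the threshold, and bars are medians. The receptor genes spread from −0.43 to 1.03, and the other chemokine receptors lie between −0.18 and 0.38. The 9 genes and the lists were chosen with earlier results of these data known. Of the 16 other chemokine receptors, 12 lay below the median level of all genes on every array. For both reasons the widths of these spreads cannot be read as a contrast between the groups.

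Of the 9 receptor genes, 4 lie on mouse chromosome 9 and the other 5 on 5 other chromosomes. In the order of the RefSeq gene table of GRCm38.p6, Ccr9, Ccr1 and Ccr2 lie in the chemokine receptor cluster on chromosome 9, and Cx3cr1 lies elsewhere on it. From Ccr9 to Ccr2 the measured genes run Ccr9, Fyco1, Cxcr6, Xcr1, Ccr1, Ccr1l1, Ccr3 and Ccr2. Their differences were −0.43 for Ccr9, −0.075 for Fyco1, 0.055 for Cxcr6, −0.13 for Xcr1, 0.73 for Ccr1, −0.060 for Ccr1l1, −0.13 for Ccr3 and 0.70 for Ccr2. Genes at the ends of the cluster thus passed the threshold in opposite directions, and the 3 genes nearest to Ccr9 had adjusted p-values of 0.59 to 0.82.

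Cmklr1 lies on chromosome 5, as does Flt3, the targeted gene. Of 460 measured genes between them, 9 (1.96%) passed the threshold, with a median difference of −0.012, beside 2.39% of all genes. Over chromosome 5 without Flt3, 20 of 1143 genes passed (1.75%). The strain around the targeted locus is not given in the labels, and its part in the Cmklr1 difference was not tested.

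For each receptor gene past the threshold, the genes with the most similar profile over the 4 arrays were found by the root mean square distance between log2 profiles centred on their means, among 18251 named genes. Nearest to Ccr9 were the phosphatase gene Cdc14a (0.0089), the interferon-induced gene Usp18 (0.017) and the nuclear pore gene Aaas (0.020). Nearest to Cxcr3 were Timm9 (0.011), Vegfd (0.012) and Fam3c (0.014), of which none passed the threshold themselves (adjusted p = 0.12, 0.088 and 0.062). Ccr2 was most like Wfikkn2 (0.030), the kinase gene Jak2 (0.035) and Tmem150b (0.036). Jak2 averaged 9.45 in Flt3 KO pDCs and 8.76 in WT pDCs, a difference of 0.69.

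The profile of Cx3cr1 was most like those of the adhesion molecule gene L1cam (0.0095), the homeobox gene Hlx (0.053) and Crip2 (0.070). Cmklr1 was nearest to the adaptor gene Clnk (0.013), Ttyh3 (0.024) and the sialyltransferase gene St3gal2 (0.027). The likeness describes these arrays alone.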

How the data were processed

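Values were the authors' deposited intensity, linear and already processed, for 30177 probe sets of 4 one-colour arrays. How the authors corrected background, summarised probes and scaled arrays is not given in the sources used here; array medians of the deposited intensity lay between 55.1 and 57.2. Probe sets were named from the platform annotation; 21789 had 1 gene symbol, standing for 19938 genes, and for each gene the probe set with the highest mean was kept. Another 1621 probe sets carried more than 1 symbol and 6767 carried no symbol, and these gave no gene values. They entered only the array medians above, the quantile normalization and the alternative that tested all probe sets together.

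Intensities were converted to log2 with no added constant and no filter. The test of Flt3 KO against WT used limma 3.58.1 (R 4.3.3) on all genes, with lmFit and trended eBayes and no covariate, with Benjamini-Hochberg adjustment over 19938 genes and a threshold of 0.05. The fit was tested on simulated data. The number of arrays limits the precision.

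The 9 genes and the gene lists were chosen with earlier results of these data known. Named genes were the 9 receptors, Flt3 and 7 fixed markers. From each list came up to 6 genes past the threshold, or else the 2 with the lowest p. For each receptor past the threshold the 3 genes nearest in profile were also named. Other than for pDCs, monocytes and macrophages, marker lists are given by counts and medians. Exceptions are Cd4, Cd8b1, Cd3d, Cd3e and Cd3g of the T cell list. Outside this rule, and chosen after values were seen, are Rarres2, S1pr3, Gnai2, the T cell markers Cd3d, Cd3e and Cd3g, and 2 further groups. These are the dim markers Fcgr1, Vcan, F13a1 and Ms4a7, and the chromosome 9 neighbours Fyco1, Cxcr6, Xcr1, Ccr1l1 and Ccr3. Same-numbered arrays did not deviate together (correlation −0.017 over 19938 genes), so replicate numbers were not taken as pairs. Alternatives were other scalings, an added constant of 16, a filter on dim genes, other variance models, averaged probe sets, a replicate block, leaving out each array and, added after seeing the data, testing all probe sets together.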

Additional observations from a re-analysis of the deposited data

How the results depend on the processing

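Ccr2 was past the threshold in all alternatives that kept the 4 arrays. Without the intensity trend the calls of Ccr9 (−0.43, adjusted p = 0.088), Cxcr3 (−0.32, 0.14), Cx3cr1 (1.03, 0.060) and Cmklr1 (0.52, 0.056) were lost, leaving 1 of 5; with all probe sets tested together that of Cxcr3 was lost (−0.32, 0.064). Ccr1 passed after centring (0.70, adjusted p = 0.037), quantile normalization (0.72, 0.040), a filter on dim genes (0.73, 0.026), robust variance (0.73, 0.036) and the replicate block (0.73, 0.022). Ccr1 did not pass with 16 added (0.61, limma adjusted p = 0.064) or without the intensity trend (0.73, 0.12). Nor did it pass with averaged probe sets (0.73, 0.056) or with all probe sets tested together (0.73, 0.11). The block changed no other call of the 9 genes and gave 194 higher and 181 lower genes overall. The 9 differences kept their sign in all alternatives run, except that Ccr6 was removed by the filter on dim genes and has no value there. The number of genes past the threshold was 724 with the filter, 108 without the trend and 219 with all probe sets, against 476.

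Leaving out 1 array gave 0 to 54 genes past the threshold and 0 to 1 of the 9; where limma called 0 genes, without WT replicate 1 or 2, 2068 and 2650 had an unadjusted p under 0.05. Differences ranged from 0.65 to 0.75 for Ccr2, 0.82 to 1.25 for Cx3cr1, 0.49 to 0.55 for Cmklr1, 0.50 to 0.96 for Ccr1, −0.48 to −0.39 for Ccr9, −0.35 to −0.29 for Cxcr3, −0.34 to −0.16 for Ccr7, 0.023 to 0.13 for Ccr6 and −0.086 to −0.0048 for Cxcr4. Those fits all have 1 residual degree of freedom, which limits what they can call, but their counts differed with the array left out. The cause of that difference, and of call changes in the other alternatives, was not tested. Precision is limited by 2 arrays a group, and Ccr6 by its dim signal.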

Other observations

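Markers of the other cell types of the spleen were counted in the same fit. Type 2 conventional dendritic cell markers had 4 higher and 1 lower of 12 measured (median 0.15), with 7 at an unadjusted limma p under 0.05. Type 1 markers had 0 higher and 1 lower of 10 (median −0.042), with 3 at an unadjusted limma p under 0.05. Markers of both types, which include Flt3, had 1 higher and 1 lower of 10 (median 0.12), with 9 at an unadjusted limma p under 0.05. Plasma cell markers had 2 higher and 3 lower of 9 (median −0.15), with 6 at an unadjusted limma p under 0.05. Natural killer cell markers had 0 higher and 0 lower of 10 in limma, with 2 at an unadjusted p under 0.05 (median 0.074), and neutrophil markers likewise 0 and 0 of 10, with 2 at an unadjusted p under 0.05 (median −0.052). Over all genes 17.1% had an unadjusted p under 0.05.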
